A study of Homo sapiens with 18 samples.

Results

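Ephrins and their Eph receptors form a family of signalling partners on the surface of neighbouring cells. Ephrin-A ligands are held in the membrane by a lipid anchor and ephrin-B ligands span it. Eph receptors are receptor tyrosine kinases, and contact between ligand and receptor sends signals into both cells that steer adhesion, repulsion and cell shape. In epithelia, including kidney tubules, the family is known for roles in cell contacts, boundaries and repair. The genes described here are 5 ligands (EFNA1, EFNA4, EFNA5, EFNB1 and EFNB2) and 5 receptors (EPHA2, EPHA4, EPHB2, EPHB3 and EPHB4), 10 in all. They were selected on gene symbol and family, and the set was gathered once the lower value of EFNB2 with CsA at 48 h had been measured on these arrays, so it was chosen by that value. Genes were found through probe sets annotated with a single gene symbol, and each gene is given by its brightest probe set unless another is named. Of the 10, 9 had such a probe set, out of 19775 genes in all. EPHB2 had none and was not analysed here. Of these 9, 7 entered the tests, out of 10717 genes tested, because the mean of at least one group reached 4 on the log2 scale.

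The arrays came from HK-2, an immortalized line of human proximal tubular epithelial cells, so every group shares one cell line and one medium with EGF and hydrocortisone. The groups were cells exposed to CsA for 12, 24 or 48 h and control cells exposed to vehicle for 12, 24 or 48 h, 3 biological replicates per group, which makes 6 groups and 18 arrays. CsA is in common use the abbreviation of cyclosporin A, a calcineurin inhibitor known to harm the kidney; the labels do not spell it out and give no dose. The design text places the series in a search for expression signatures of compounds toxic to the kidney. The measurements are log2 GCRMA values, on which each unit of difference is a doubling or halving of the signal. Probe sets differ in brightness for the same amount of RNA, so levels were compared between arrays and not between genes. An array measures RNA from a whole culture, so fewer cells of one kind and less RNA per cell cannot be told apart.

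The arrays had medians between 2.86 and 2.92. None of 10 proximal tubule markers, among them ANPEP, CUBN, LRP2 and AQP1, had a median that reached 4, while 7 of 8 measured markers of renal epithelium did (KRT8, KRT18, KRT19, EPCAM, CDH1, CDH16 and PAX8). Of the markers of other cells, the median reached 4 in 1 of 8 endothelial (EGFL7), 0 of 5 leukocyte, 2 of 4 podocyte (PODXL and SYNPO) and 0 of 5 distal nephron markers. Medians hide spread between arrays: the leukocyte marker LCP1 ranged from 3.12 to 5.56 and CDH1 from 3.05 to 9.23. The endothelial markers PECAM1, VWF, CDH5 and KDR stayed under 4 on all arrays. Of 8 fibroblast markers 4 reached it, COL1A1, COL3A1, DCN and LUM. Several genes were lowest on the arrays of replicate 3, whose values are set against the others below.

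Of the 7 genes of this set that were tested, the 3 with the largest differences at 48 h have their promoters shown here. The rest of the account turns on them. EFNB2 encodes ephrin-B2, a transmembrane ligand of EPHB4 and other EphB receptors, and lies at chr13:106489745-106535662. EFNA5 encodes the lipid-anchored ephrin-A5 and lies at chr5:107376894-107670937. EPHA4 encodes a receptor that binds ligands of both classes and lies at chr2:221418027-221574202. All 3 genes are on the minus strand of GRCh38.p14. Each sequence runs 5′ to 3′ on the gene's strand, from 250 bases before a RefSeq start site through the first 50 transcribed bases. The start site used is the one at the 5′ end of the gene's coordinates. Any other annotated start site of these genes was not looked at. The windows are chr13:106535613-106535912 for EFNB2, chr5:107670888-107671187 for EFNA5 and chr2:221574153-221574452 for EPHA4. Capitals mark matches, on either strand, to the GC box GGGCGG, the CCAAT box CCAAT, the TATA box TATAAA and the core GGAAAA bound by NFAT, the transcription factor that calcineurin activates.
EFNB2: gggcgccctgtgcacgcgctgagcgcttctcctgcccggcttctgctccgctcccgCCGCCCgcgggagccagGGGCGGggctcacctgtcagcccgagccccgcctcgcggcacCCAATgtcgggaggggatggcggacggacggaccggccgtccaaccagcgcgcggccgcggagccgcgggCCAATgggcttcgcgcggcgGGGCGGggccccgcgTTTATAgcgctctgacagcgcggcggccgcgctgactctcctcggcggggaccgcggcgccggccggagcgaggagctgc
EFNA5: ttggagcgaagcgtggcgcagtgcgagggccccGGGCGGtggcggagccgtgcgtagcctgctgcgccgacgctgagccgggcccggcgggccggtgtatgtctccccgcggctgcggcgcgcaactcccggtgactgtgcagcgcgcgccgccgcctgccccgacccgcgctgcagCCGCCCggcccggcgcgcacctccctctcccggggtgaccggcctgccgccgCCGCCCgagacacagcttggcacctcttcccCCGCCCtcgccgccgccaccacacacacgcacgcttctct
EPHA4: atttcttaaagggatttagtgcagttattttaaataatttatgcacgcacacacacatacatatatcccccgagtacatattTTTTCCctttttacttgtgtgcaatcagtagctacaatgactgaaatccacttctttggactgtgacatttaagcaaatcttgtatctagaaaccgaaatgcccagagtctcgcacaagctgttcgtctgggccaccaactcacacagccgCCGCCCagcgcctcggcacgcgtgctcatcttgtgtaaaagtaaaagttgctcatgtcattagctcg

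The EFNB2 window held 3 GC boxes, a pair of CCAAT boxes at positions -135 and -65 from the start site, and 1 TATA box at -30, read on the opposite strand. The EFNA5 window held 4 GC boxes and none of the other marked motifs. The EPHA4 window held 1 GC box and 1 NFAT core. G and C made up 78.7% of the EFNB2 window, 78.0% of the EFNA5 window and 43.0% of the EPHA4 window, against a median of 58.7% over all promoters. Among 35116 RefSeq promoters of the same length, 45.0% held a GC box, 34.6% a CCAAT box, 11.5% a TATA box and 24.0% an NFAT core. The E2F forms TTTCGCGC and TTTGGCGC, the ATF4 composite TGATGNAA, the E box CACGTG, the AP-1 site TGAGTCA and the TEAD site GGAATG had no match in any of the 3 windows. These forms were found in 0.515%, 0.652%, 3.62%, 7.26%, 4.95% and 14.0% of all promoters, in that order. No marked motif overlapped another, and a match here describes letters, not a bound site.

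EFNB2 had the lowest values of its series after 48 h of CsA. That difference was known when these genes were gathered, so it is a description with no test. The CsA arrays read 6.79, 5.95 and 5.74 for replicates 1, 2 and 3 at 48 h, against 8.18, 7.28 and 7.32 on the control arrays. The highest CsA array lay below the lowest control array. The means were 6.16 ± 0.56 with CsA and 7.59 ± 0.51 in control (SD, n = 3 each), a difference of -1.43 ± 0.27 (standard error of the limma fit). The pairs of equal replicate number differed by -1.38, -1.33 and -1.58, so the pairs lay closer together than the arrays within either group. Of the other 10716 genes tested, 74 had a lower difference at 48 h.

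The earlier times showed smaller differences of the same sign for EFNB2. At 12 h the arrays read 8.09, 8.10 and 7.85 with CsA and 8.44, 8.62 and 7.99 in control, and the difference was -0.34 ± 0.27 (limma adjusted p = 1). The groups overlapped at 12 h through control replicate 3. At 24 h they read 7.80, 7.53 and 7.60 with CsA and 8.12, 8.23 and 7.91 in control, and the difference was -0.45 ± 0.27 (limma adjusted p = 0.999 without and 0.527 with the replicate number as a block). The groups did not overlap at 24 h, yet the difference did not pass the test. Over the 3 times EFNB2 was lower with CsA in 9 of 9 pairs. The pairs of 48 h belong to the contrast that chose the genes, so nothing is read from that count. Pair counts over the 3 times, here and below, come from 3 replicate numbers and are not 9 independent pairs. The share of all genes with such counts was not computed.

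**Figure D1:**
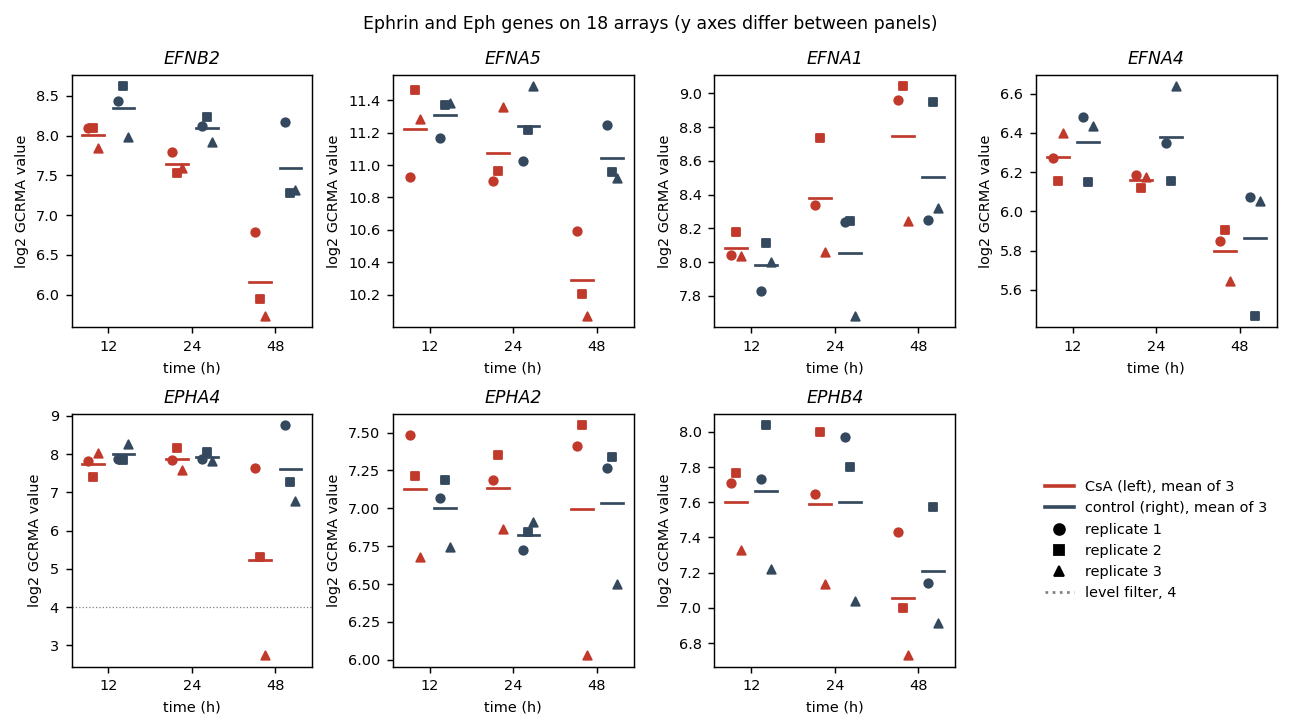
GCRMA values on the log2 scale (vertical axis, a scale of its own in each panel) of the 7 tested ligand and receptor genes by time in hours (horizontal axis), with CsA arrays to the left of control arrays; symbols are replicates and bars are means of 3. At 48 h the CsA arrays lie below all control arrays for EFNB2 and EFNA5, while EPHA4 spreads between 2.74 and 7.65 with CsA and overlaps control.

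A second, dimmer EFNB2 probe set differed by -0.31 at 12 h, -0.97 at 24 h and -0.60 at 48 h. At 24 h it read 4.36, 4.63 and 4.16 with CsA and 5.38, 5.03 and 5.65 in control, with no overlap. At 48 h it read 4.13, 3.23 and 3.23 with CsA and 4.23, 4.13 and 4.01 in control. There 2 CsA values were under 4, where GCRMA compresses differences, and replicate 1 with CsA lay within the control range. The brightest probe set and this one gave the same sign at each time but not the same order of sizes. Averaged over both probe sets, the 48 h difference of EFNB2 was -1.01.

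EFNA5, the ephrin-A5 gene, was also lower with CsA at 48 h. Its arrays read 10.59, 10.21 and 10.07 with CsA and 11.24, 10.96 and 10.92 in control at 48 h, so all CsA arrays lay below all control arrays. The means were 10.29 ± 0.27 with CsA and 11.04 ± 0.18 in control (SD, n = 3 each). This difference of -0.75 ± 0.18 missed the threshold without the block (limma adjusted p = 0.0707) and passed it with the replicate number as a block (limma adjusted p = 0.0262). In a blocked fit of just the 6 arrays of 48 h, chosen after the data were seen, the limma adjusted p was 0.0323. With no block and single arrays left out in turn, EFNA5 was called in 1 of 18 fits, without CsA replicate 1 of 48 h (limma adjusted p = 0.0197), and the adjusted p reached 0.336 in the others. Of the other genes tested, 564 had a lower difference.

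At the earlier times the differences of the brightest EFNA5 probe set were small. It differed by -0.08 ± 0.18 at 12 h, with values of 10.93 to 11.46 with CsA and 11.17 to 11.38 in control. It differed by -0.17 ± 0.18 at 24 h, with values of 10.90 to 11.35 with CsA and 11.02 to 11.49 in control. Neither difference passed the test (limma adjusted p = 1 and 0.999), and the groups overlapped at both times. EFNA5 was lower with CsA in 8 of 9 pairs. Another of its probe sets was lower with CsA in every pair at all 3 times. It differed by -0.19 at 12 h, with 7.92 to 8.03 with CsA and 8.04 to 8.32 in control and no overlap, and by -0.30 at 24 h, with overlap. At 48 h this probe set differed by -0.82, with CsA arrays from 6.88 upward and control arrays from 7.85 to 8.03 and no overlap. A further one differed by -0.60 at 48 h, and there CsA replicate 1 lay within the control range. The remaining EFNA5 probe set was under 4 on all arrays.

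EFNA1 encodes ephrin-A1, a ligand of EPHA2, and lies at chr1:155127876-155134899. It was higher with CsA in 8 of 9 pairs, but no time passed the test: the differences were 0.10 ± 0.25 at 12 h, 0.32 ± 0.25 at 24 h and 0.24 ± 0.25 at 48 h (limma adjusted p = 1, 0.999 and 0.715). At 48 h the arrays read 8.96, 9.04 and 8.24 with CsA and 8.25, 8.95 and 8.32 in control, and the groups overlapped. EFNA4 encodes ephrin-A4, another lipid-anchored ligand, at chr1:155063740-155069553. Its differences were -0.08 ± 0.17, -0.22 ± 0.17 and -0.07 ± 0.17 at 12, 24 and 48 h (limma adjusted p = 1, 0.999 and 0.919), with 7 of 9 pairs lower with CsA. At 48 h EFNA4 read 5.85, 5.90 and 5.65 with CsA and 6.08, 5.47 and 6.05 in control. EFNB1, the gene of the transmembrane ephrin-B1, was under 4 on all 18 arrays, between 3.26 and 3.48, and was not tested.

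Among the receptors, EPHA4 had the lowest mean difference and the widest spread. At 48 h it read 7.65, 5.30 and 2.74 with CsA and 8.75, 7.27 and 6.77 in control. Each CsA array lay below the control array of its number, by -1.11, -1.97 and -4.02, but CsA replicate 1 lay above control replicates 2 and 3. The means were 5.23 ± 2.45 with CsA and 7.60 ± 1.03 in control (SD, n = 3 each). The difference of -2.37 ± 0.83 did not pass the test (limma adjusted p = 0.181 without and 0.0613 with the replicate block).

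Single arrays decided how large the EPHA4 difference was. The reading of 2.74 in CsA replicate 3 lies in the range that GCRMA gives to probe sets near background, and with values under 4 raised to 4 the difference was -1.95. Without CsA replicate 1 of 48 h it was -3.58 and passed the test (limma adjusted p = 0.00779), and without CsA replicate 3 of 48 h it was -1.13. Another 3 EPHA4 probe sets reached 4, and their 48 h differences were -1.27, -2.14 and -1.32, with the CsA array lower in all 3 pairs of each. At 12 and 24 h the brightest probe set differed by -0.25 ± 0.83 and -0.05 ± 0.83, with values of 7.39 to 8.16 with CsA and 7.81 to 8.25 in control over both times (limma adjusted p = 1 and 0.999). The other 3 differed by -0.16, -0.38 and -0.18 at 12 h and by -0.43, -0.44 and -0.08 at 24 h. At 24 h each was lower with CsA in all 3 pairs, and the one at -0.43 read 5.26 to 5.75 with CsA and 5.94 to 6.06 in control, with no overlap.

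**Figure D2:**
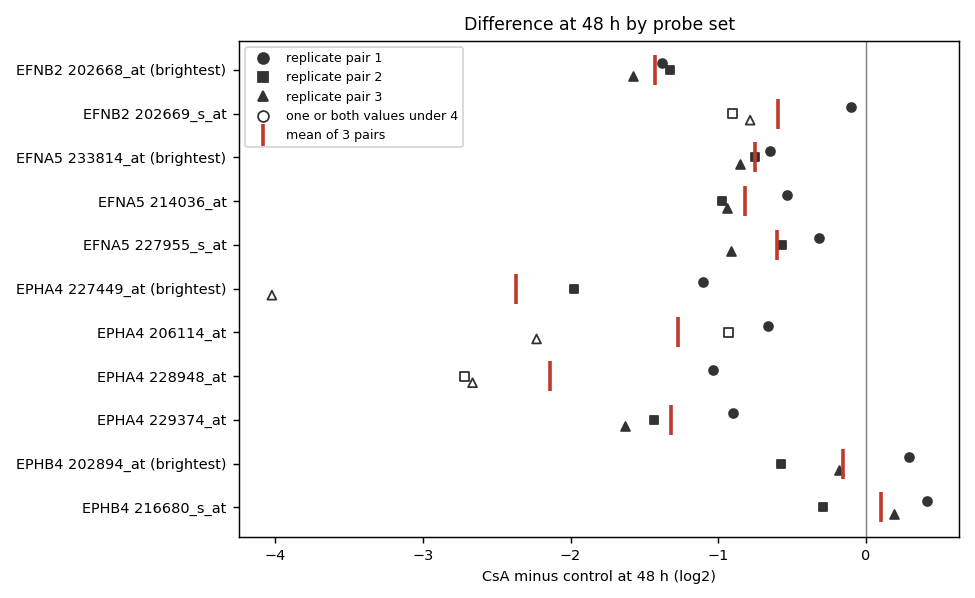
CsA minus control at 48 h on the log2 scale (horizontal axis) for each probe set, named down the vertical axis, of the genes EFNB2, EFNA5, EPHA4 and EPHB4 that have more than one above 4. Symbols are replicate pairs, open where a value is under 4, and red bars are means of 3 pairs; every pair of EFNB2, EFNA5 and EPHA4 lies below 0, while the means of the EPHB4 probe sets lie on either side of it.

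EPHA2 encodes the main ephrin-A1 receptor of epithelia and lies at chr1:16124337-16156069. At 48 h it read 7.41, 7.55 and 6.03 with CsA and 7.27, 7.34 and 6.50 in control, and the difference was -0.04 ± 0.34 (limma adjusted p = 0.985). Replicates 1 and 2 were above their control arrays and replicate 3 below its own. At 12 and 24 h EPHA2 differed by 0.12 ± 0.34 and 0.31 ± 0.34 (limma adjusted p = 1 and 0.999), and it was higher with CsA in 6 of 9 pairs.

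EPHB4 encodes the receptor best known as the partner of ephrin-B2 and lies at chr7:100802565-100827523. At 48 h it read 7.43, 7.00 and 6.73 with CsA and 7.14, 7.57 and 6.91 in control, and the difference was -0.16 ± 0.30 (limma adjusted p = 0.882). Its differences at 12 and 24 h were -0.06 ± 0.30 and -0.01 ± 0.30 (limma adjusted p = 1 and 0.999). A second EPHB4 probe set differed by 0.22, -0.29 and 0.11 at 12, 24 and 48 h, opposite in sign at 12 and 48 h, and neither gives a direction. EPHB3, an ephrin-B receptor, was under 4 on all 18 arrays, with its brightest probe set between 2.81 and 3.00, and was not tested.

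Counted together, no tested member was called at 12 or 24 h, when 0% of all genes were called without the block and, at 24 h with it, 0.00933%. At unadjusted p under 0.05 in the limma fit without the block, 98 and 406 of all genes were found at 12 and 24 h. Both counts are below a share of 0.05 of the 10717 genes tested. With the replicate block the counts were 259 at 12 h, below that share, and 1009 at 24 h, above it. Of the 7 members, 1 was among those 1009 genes, EFNB2, and none was among the 259. At 48 h, 1 of 7 was called lower, EFNB2 itself, against 0.224% of all genes. With the replicate block 2 of 7 were called lower, EFNB2 and EFNA5, against 5.96% of all genes, and none was called higher. As the 48 h contrast was part of what gathered these genes, nothing is read from these shares. The count without the block changed with 15 of the 18 arrays left out in turn: it was 3 without CsA replicate 1 of 48 h and 0 without any one of another 14, and it stayed at 1 without control replicate 3 of 12 h or control replicates 2 or 3 of 48 h.

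The groups did not overlap in 0, 1 and 2 of 7 members at 12, 24 and 48 h, all with CsA below control. Over all genes 3.1%, 5.12% and 6.77% lay so at the 3 times. The median difference of the 7 members was -0.08, -0.05 and -0.16 at 12, 24 and 48 h, against -0.01, -0.01 and 0.00 over all genes tested. Of the 7 differences 5, 5 and 6 were negative, against 5709, 5577 and 5341 of the 10717 genes tested. The non-overlap count, median and signs at 48 h include EFNB2, whose value chose the set, so nothing is read from them. Averaged over the times, no member was called without the block (0.084% of all genes either way) and 1 was called lower with it, EFNB2, when 2.5% of all genes were. The average contains the 48 h contrast that chose the genes, so nothing is read from that call.

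**Figure D3:**
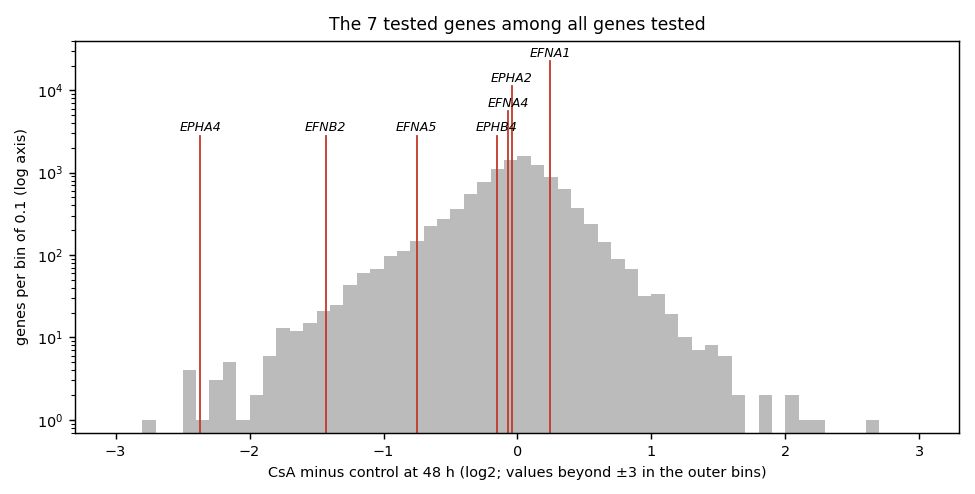
Number of genes (vertical axis, log scale) by CsA minus control at 48 h on the log2 scale (horizontal axis), for all 10717 genes tested in bins of 0.1, with the 7 members as red lines whose heights carry no meaning. EPHA4, EFNB2 and EFNA5 lie to the left at -2.37, -1.43 and -0.75, and the other 4 lie between -0.16 and 0.24.

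Whether the CsA difference changed with time was tested by a moderated F test over the 3 times. It called none of the 7 members and 0.0373% of all genes, and with the replicate block it again called none, with 0.028% of all genes called. The difference between 48 h and 12 h in the CsA effect was -0.67 ± 0.26 for EFNA5 and -2.12 ± 1.18 for EPHA4 (limma adjusted p = 1 for both, 0.353 and 0.456 with the block). For EFNB2 it was -1.10 ± 0.39, given as a description. The F test of EFNB2 contains the 48 h difference that chose the genes, so nothing is read from its place in the count. In the other tested members a late effect is therefore not shown to differ from an early one.

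**Figure D4:**
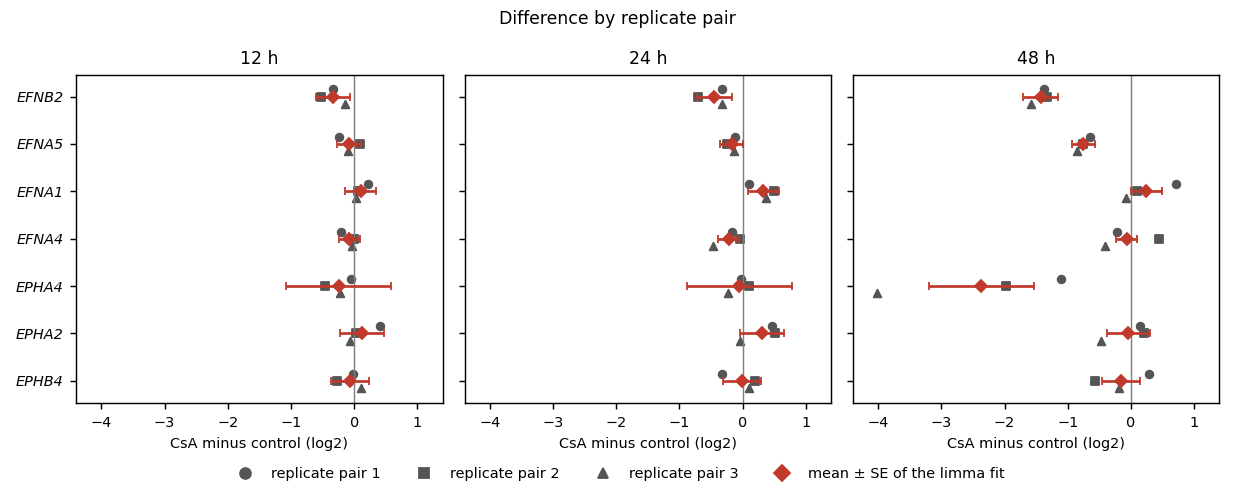
CsA minus control on the log2 scale (horizontal axis) for the 7 tested genes (down the vertical axis) at 12, 24 and 48 h, with grey symbols for the 3 replicate pairs and red diamonds for the limma estimate with its standard error. At 48 h all pairs of EFNB2 lie between -1.58 and -1.33, and those of EPHA4 spread from -4.02 to -1.11.

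Changes with culture time alone were read in the control arrays. In control arrays, 48 h against 12 h, no member passed the test without the block, when 17.9% of all genes did. With the replicate block 1 rose (18% of all genes) and 3 fell (18.7% of all genes). With 7 members, EFNB2 among them, nothing particular to the family is read from these counts. EFNB2, one of the 3 that fell, averaged 7.59 ± 0.51 at 48 h and 8.35 ± 0.33 at 12 h in control (SD, n = 3 each). Its control arrays at 48 h were part of the contrast that chose the genes. The EFNB2 difference of -0.76 ± 0.27 is therefore a description with no test. EFNA4 differed by -0.49 ± 0.17 (limma adjusted p = 0.0557 without and 0.0151 with the block) and EPHB4 by -0.45 ± 0.30 (adjusted p = 0.321 without and 0.0362 with the block). EFNA1 was the one that rose, by 0.53 ± 0.25 (limma adjusted p = 0.155 without and 0.0267 with the block). EFNA5, EPHA4 and EPHA2 differed by -0.26 ± 0.18, -0.40 ± 0.83 and 0.04 ± 0.34 and passed neither fit. Between 48 and 24 h in control no member passed without the block (14.5% of all genes), and EFNA4 did with it, at -0.51 (limma adjusted p = 0.0133, 16% of all genes called lower). Between 24 and 12 h no member and 0% of all genes were called in either fit. At unadjusted p under 0.05 the limma fit found 131 genes without the block and 427 with it.

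In the CsA arrays, 48 h against 12 h, 3 of the 6 members other than EFNB2 were called lower without the block, when 16.2% of all genes were. EFNA5 differed by -0.93 ± 0.18 (limma adjusted p = 0.00163), EPHA4 by -2.52 ± 0.83 (limma adjusted p = 0.0318) and EFNA4 by -0.48 ± 0.17 (limma adjusted p = 0.0413). EFNB2 differed by -1.85, given as a description with no test. With the block EPHB4 also passed, at -0.55 (limma adjusted p = 0.0104), and EFNA1 rose by 0.66 (limma adjusted p = 0.00543), with 24.4% of all genes called in each direction. The EFNA5 call held without each of the 18 arrays in turn. The EPHA4 call held in 13 of these 18 fits and was lost without any one of the 12 h CsA arrays or without CsA replicate 2 or 3 of 48 h; without CsA replicate 3 of 48 h EPHA4 differed by -1.27. The EFNA4 call held in 9 of them and was lost without any one of the 12 h or 48 h CsA arrays, CsA replicates 1 or 2 of 24 h, or control replicate 1 of 24 h. These comparisons share the 48 h arrays with those between CsA and control.

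The fibroblast markers, which HK-2 cells expressed in part, were read beside the 48 h differences. The summed level of the 8 markers was 37.0 to 40.6 with CsA and 40.1 to 43.5 in control at 48 h, against 42.3 to 45.4 with CsA and 43.0 to 44.6 in control at 12 h. The 48 h ranges overlapped, as did those of COL1A1 (6.39 to 7.45 with CsA and 7.34 to 7.61 in control), COL3A1 (4.26 to 4.57 with CsA and 4.49 to 4.55 in control), DCN and LUM taken singly. COL1A2, PDGFRA, PDGFRB and THY1 among them were under 4 on all arrays. The part of these genes in the EFNB2, EFNA5 and EPHA4 differences was not tested.

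The replicates differed from each other in several members. EPHB4 was lowest in replicate 3 in 6 of 6 groups, as were 14.8% of all genes, with means of 7.06 in replicate 3 and 7.65 in replicates 1 and 2. EPHA2 was lowest there in 5 of 6 groups (24.6% of all genes in at least 5), with means of 6.62 in replicate 3 and 7.22 in the others. EFNB2, EFNA1 and EPHA4 were lowest there in 4 of 6 groups (36.4% of all genes in at least 4). EFNB2 averaged 7.40 there and 7.76 in replicates 1 and 2. EFNA5 and EFNA4 had no such tendency, with replicate 3 lowest in 2 and 1 of 6 groups. The EFNB2 difference at 48 h was present in each pair, and without all arrays of replicate 3 it was -1.36.

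The genes whose pattern was most like that of EFNB2 were found by Pearson's r over the 18 arrays, after the mean of each replicate number was removed. These arrays share treatments, times and normalization, so r is a description. EFNA5 had an r of 0.95, with 75 of 10716 genes higher, and EPHA4 an r of 0.82, with 1205 higher. EFNA4 and EPHB4 had r of 0.74 and 0.72, EPHA2 of 0.03 and EFNA1 of -0.80. Outside the family the highest values belonged to HELLS, a chromatin remodeller (0.99), ASRGL1, an asparaginase (0.98), RMI1, a partner of the BLM helicase (0.98), PLEKHA1, a phosphoinositide-binding adaptor (0.97), and TMEM201, a protein of the inner nuclear membrane (0.97). Their 48 h differences were -2.19, -1.07, -0.89, -0.81 and -1.05. The lowest values belonged to RTCA, an RNA cyclase (-0.97), YIPF2, a Golgi membrane protein (-0.97), HDLBP, an RNA-binding protein (-0.97), DDOST, a subunit of the oligosaccharyltransferase (-0.97), and AP3D1, a subunit of the AP-3 coat (-0.96). Their 48 h differences were 0.89, 0.80, 0.57, 0.60 and 0.57.

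Of the other family genes, 12 had a probe set and 2 were tested, EPHB1 and EPHA10. EPHB1, an ephrin-B receptor at chr3:134795260-135260467, was higher with CsA on all arrays at 48 h, while its differences at 12 and 24 h were -0.24 ± 0.50 and -0.10 ± 0.50 (limma adjusted p = 1 and 0.999). Its r with EFNB2 over the 18 arrays was 0.45. At 48 h it read 5.91, 6.62 and 6.15 with CsA and 4.78, 5.08 and 5.84 in control, with no overlap, as in 8.25% of all genes higher with CsA. The difference of 0.99 ± 0.50 missed the threshold without the block (limma adjusted p = 0.358) and passed it with the block (limma adjusted p = 0.0343, when 4.8% of all genes were called higher). Another EPHB1 probe set differed by -0.64, -0.47 and 0.14 at 12, 24 and 48 h, with overlap at each time. It was under 4 on all arrays of 48 h and so does not bear on the rise. In control arrays EPHB1 at 48 h against 12 h fell by 2.07 ± 0.50 (limma adjusted p = 0.0132 without the block, when 9.37% of all genes were called lower, and 0.000123 with it), to 5.24 ± 0.55 at 48 h against 7.31 ± 0.77 at 12 h (SD, n = 3 each). That call was lost without control replicate 3 of 12 h (limma adjusted p = 0.059). In CsA arrays it differed by -0.84 ± 0.50 (limma adjusted p = 0.227 without and 0.0189 with the block). The change of the CsA effect between 12 and 48 h was 1.24 ± 0.71 (limma adjusted p = 1 without and 0.284 with the block), so the time courses with and without CsA are not shown to differ. EPHB1 was highest in replicate 3 in 5 of 6 groups (20.5% of all genes in at least 5). EPHA10, a receptor without kinase activity, lay between 4.42 and 4.98 on all arrays and was not called at any time. The other 10 family genes had no group mean of 4.

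The proteins that carry the Eph and ephrin signal were read from a list of 52 genes, of which 42 were tested. At 48 h none was called without the block, when 0.439% of all genes were, and with it 1 rose and 3 fell, against 4.8% and 5.96% of all genes. These counts are near those shares, so they say nothing particular to the list, and the 4 genes are given as single values. FYN, a kinase recruited by ephrins, read 6.14, 6.51 and 6.18 with CsA and 5.45, 5.83 and 4.27 in control, and the difference was 1.09 ± 0.58 (limma adjusted p = 0.392 without and 0.0341 with the block). TIAM1, an exchange factor for Rac, read 4.29, 3.28 and 3.89 with CsA and 5.65, 4.47 and 5.43 in control, and the difference was -1.37 ± 0.38 (limma adjusted p = 0.102 without and 0.028 with the block). Of its CsA values 3.28 and 3.89 are under 4. ARHGEF16, a guanine nucleotide exchange factor that binds EPHA2, differed by -0.56 ± 0.16 (limma adjusted p = 0.11 without and 0.0237 with the block). VAV3, an exchange factor recruited by active Eph receptors, read 11.17, 10.33 and 8.34 with CsA and 11.72, 10.99 and 9.31 in control, and the difference was -0.73 ± 0.90 (adjusted p = 0.783 without and 0.0286 with the block). Its groups overlapped widely while every pair was lower with CsA.

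The 42 genes had a median difference of -0.06 at 48 h, with 14 positive and 28 negative, against a median of 0.00 over all genes. Without CsA replicate 1 of 48 h, 2 of them were called without the block, ARHGEF16 and TIAM1, and without control replicate 2 of 48 h 1 was, TIAM1. At 12 and 24 h none was called, with medians of -0.04 and 0.06. KALRN, an exchange factor, was among the 3 lowest differences at 48 h (-0.81 ± 0.44). GRB10, an adaptor (0.82 ± 0.36), and NCSTN, a subunit of the gamma-secretase that cleaves ephrin-B (0.32 ± 0.16), were among the 3 highest, and none of these passed either fit.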

How the data were processed

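The authors' deposited table held log2 GCRMA values for 54675 probe sets on 18 arrays; GCRMA is named in the submitters' processing notes with no version, and the log2 scale was taken from the range of the values. GCRMA corrects background, normalizes between arrays and summarizes probe sets, and it compresses differences near background. The sources used here do not name the arrays that were normalized as one set. The number of arrays limits the precision. Probe sets were named from the platform annotation: 41091 had 1 symbol, 1801 several and 11721 none, and 62 were array controls. The 21 family symbols with a probe set matched current RefSeq names by gene identifier.

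For tests, probe sets with 1 symbol and a highest group mean of at least 4 were kept, with the brightest over all arrays taken per gene, which left 10717 genes. Differences were fitted with limma 3.58.1 in R 4.3.3 (lmFit, eBayes) on all 18 arrays, one term per group. Adjustment was by Benjamini-Hochberg over all genes, and a gene was called under 0.05. Errors beside differences are standard errors of that fit. The fit without the block was tested on simulated data with noise independent between arrays. That setting had no shared replicate effect, so it does not show how this fit behaves where replicate numbers share one. Python 3.11.15, pandas 2.3.3 and matplotlib 3.10.9 made tables and figures.

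After group means were removed, arrays with one replicate number correlated at 0.277 to 0.942 across genes, and 18 of 18 arrays were closest, outside their own group, to one of equal number. On these data, with no label to state it, equal numbers were treated as pairs in the pair differences and in the fit with the replicate block. The main fit has no term for the replicate number, so its standard errors include the spread between replicate numbers. A difference that missed the threshold in the main fit is not shown to be absent. Alternatives covered the replicate block, level filter, floor, normalization, probe set, spread, arrays fitted and each array left out. The members, gene lists and the rule for named genes (all members, the 5 genes most and least like EFNB2, tested family genes, and partners that were called or had the 3 largest differences each way) were chosen with earlier results of these data known. One gene list is not reported here. Promoters came from RefSeq on GRCh38.p14. Where nothing says that replicates came from separate passages, p-values measure the spread between these samples.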

Additional observations from a re-analysis of the deposited data

How the results depend on the processing

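The replicate block moved the counts of members called to 2 at 48 h, 1 in the average of the 3 times, 1 in control at 48 against 24 h and 4 in control at 48 against 12 h. It moved the count of partners called at 48 h to 4, as did the fit on the 48 h arrays with the block and no others (chosen after seeing the data), which called 2 members. The 48 h count was 0 with no level filter, with a filter at 6, on the arrays of the groups compared alone and without all arrays of replicate 3. The count in CsA arrays at 48 against 12 h, 4 with EFNB2 included, was 2 with no level filter and on the arrays compared alone, with or without the block. In control at 48 against 24 h it was 1 with a filter at 6, with quantile normalization and without replicate 3, and 2 with the mean of all probe sets; at 48 against 12 h it was 2 with quantile normalization and with that mean, which also gave 1 in the average.

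With single arrays left out in turn, the counts of members called ranged from 0 to 3 at 48 h, 0 to 1 in the average, 0 to 1 and 0 to 2 in control at 48 against 24 h and against 12 h, and 2 to 5 in CsA arrays at 48 against 12 h. The count of partners ranged from 0 to 2. Of 44 gene differences, 14 turned sign in at least one such fit. At 12 h EFNA5 ranged from -0.20 to 0.0667, EPHA2 from -0.0538 to 0.347, EPHB4 from -0.28 to 0.13 and EPHB1 from -0.63 to 0.20. At 24 h EPHA4 ranged from -0.20 to 0.0930, EPHB4 from -0.29 to 0.22 and EPHB1 from -0.45 to 0.40. At 48 h EFNA4 ranged from -0.27 to 0.0376, EPHA2 from -0.32 to 0.44, EPHB4 from -0.35 to 0.0261 and VAV3 from -1.41 to 0.0731. At 48 against 12 h EPHA2 ranged from -0.12 to 0.30 and EPHA4 from -0.97 to 0.0183 in control, and EPHA2 from -0.41 to 0.35 with CsA.

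Signs turned in small differences: EPHB4 at 12 h was 0.0806 with the mean of all probe sets. Without all arrays of replicate 3, EPHA4, EPHB1, EFNA4 and EPHA2 gave 0.0405 and 0.0490 at 24 h and 0.104 and 0.174 at 48 h, in that order, and at 48 against 12 h EPHA4 gave 0.15 in control and EPHA2 0.13 with CsA. The causes were not tested. No sign turned for EFNB2 in any alternative, and the mean of all probe sets moved its 48 h difference to -1.01. Values near background limit EPHA4 at 48 h and the genes under 4.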
